A study of Mus musculus with 22 samples.

Results

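Dlk1 and 9 other imprinted genes were followed through β-cells sorted from the pancreas of mice whose other islet endocrine cells had been removed, and of control mice. The 10 genes were taken by name from a table of 52327 genes: Dlk1, Meg3, Rian and Mirg of the Dlk1-Meg3 region, and Peg3, Plagl1, Grb10, Gnas, Nnat and Igf2 of other imprinted loci. Dlk1 had been chosen by its higher counts in the mice without the other endocrine cells, and the rest beside it with the same comparisons known, so the values of all 10 genes in those comparisons are given as a description with no p. The same holds for Dlk1 in the feeding comparisons that include DT mice. Of the 10 genes, 9 passed the filter on low counts, and Igf2 did not.

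The study asks how β-cells perform in islets that hold β-cells alone. The 4 groups were refed DT mice (n = 6), refed control mice (n = 5), fasted DT mice (n = 6) and fasted control mice (n = 5), with 1 library per mouse and every mouse counted as a replicate. DT mice had received diphtheria toxin (DT), control mice are labelled as controls with no further treatment named, and the sort was made 1 month after ablation. Fasted mice had gone 8 h without food, and refed mice had the same fast followed by 2 h of feeding. All 22 mice, controls included, were males of mixed background, 3 months old, with the genotype GluDTR+, SstDTR htz, PpyDTR htz. These alleles place the toxin receptor in the glucagon, somatostatin and pancreatic polypeptide cells, so toxin spares the β-cells in the intact animal.

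Genomic imprinting is the expression of a gene mainly from the copy inherited from 1 parent, set by DNA methylation laid down in the germ line. In the Dlk1-Meg3 region the father's copy gives the protein genes Dlk1 and Rtl1, and the mother's copy gives the noncoding RNAs Meg3, Rian and Mirg, which carry microRNAs and small nucleolar RNAs. Dlk1 is a membrane protein with repeats like those of Notch ligands, best known as a marker of immature cells that restrains adipocyte differentiation, and MEG3 is high in human β-cells. The read counts do not separate the 2 parental copies of a gene.

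On mouse genome build GRCm38.p6, Dlk1, Meg3, Rian and Mirg lie on chromosome 12 within 297 kb and are on the plus strand. RefSeq places the protein-coding gene Dlk1 at chr12:109452485-109463336 and the long noncoding RNA gene Meg3 at chr12:109540996-109571729. Rian follows at chr12:109603945-109661716 and Mirg at chr12:109734981-109749458. The gaps are 77.7 kb from Dlk1 to Meg3, 32.2 kb from Meg3 to Rian and 73.3 kb from Rian to Mirg. Peg3 (chr7:6703892-6730462) and Igf2 (chr7:142650768-142666816) share chromosome 7, and Gnas (chr2:174284320-174346744) and Nnat (chr2:157560078-157562525) share chromosome 2. Plagl1 lies at chr10:13090832-13131694 and Grb10 at chr11:11930499-12037428.

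The promoters of Dlk1 and Meg3 are printed because they start the paternal and the maternal transcript of the region, whose values are set side by side here, and that of Peg3 because it is the most abundant of the 10 genes. Each runs from 250 bases before to 50 bases after a RefSeq start, 5′ to 3′ on the gene's own strand (build GRCm38.p6). All 10 genes had at least 1 promoter in the RefSeq table, 18 in all. In the Dlk1 promoter (chr12:109452573-109452872, plus strand) capitals mark the 9 CG dinucleotides, the sites of DNA methylation. In those of Meg3 (chr12:109540746-109541045, plus strand) and Peg3 (chr7:6730370-6730669, minus strand) capitals mark the letters TGACGTCA, the cAMP response element, which reads alike on both strands.
Dlk1: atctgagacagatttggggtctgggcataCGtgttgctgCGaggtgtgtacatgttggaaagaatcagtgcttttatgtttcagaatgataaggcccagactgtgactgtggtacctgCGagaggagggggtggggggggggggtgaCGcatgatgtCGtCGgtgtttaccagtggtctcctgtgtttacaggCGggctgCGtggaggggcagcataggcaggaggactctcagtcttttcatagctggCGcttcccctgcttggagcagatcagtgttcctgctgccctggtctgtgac
Meg3: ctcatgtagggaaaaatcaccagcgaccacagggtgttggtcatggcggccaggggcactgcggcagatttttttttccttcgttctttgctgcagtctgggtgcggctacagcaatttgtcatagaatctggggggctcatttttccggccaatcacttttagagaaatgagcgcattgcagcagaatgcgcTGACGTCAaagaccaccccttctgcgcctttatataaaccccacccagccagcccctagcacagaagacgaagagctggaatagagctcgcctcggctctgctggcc
Peg3: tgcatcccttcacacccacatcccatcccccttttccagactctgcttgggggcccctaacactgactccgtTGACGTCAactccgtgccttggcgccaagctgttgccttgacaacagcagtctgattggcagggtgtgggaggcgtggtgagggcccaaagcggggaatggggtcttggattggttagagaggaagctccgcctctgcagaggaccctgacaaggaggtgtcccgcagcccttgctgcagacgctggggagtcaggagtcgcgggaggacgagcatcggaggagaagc
The 8 letters TGACGTCA occurred in 2 of the 18 promoters of these genes and in 588 of 32851 mouse promoters of the same length, or 1.79%. They begin at base 194 of the Meg3 window and base 73 of the Peg3 window, and the Dlk1 window does not hold them. A median mouse promoter of this length holds 7 CG dinucleotides (quartiles 3 and 20), against 9 in Dlk1 and 13 in each of Meg3 and Peg3. These matches describe letters, and no binding or methylation was measured.

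Between the start of Meg3 and the end of Mirg, RefSeq lists 54 microRNA hairpins with 106 mature microRNAs, 10 of the hairpins within Mirg itself. A few mature microRNAs within or near Mirg show how sequences in this cluster share or nearly share the seed, bases 2 to 8, which pairs with target mRNAs and is printed in capitals.
mmu-miR-494-5p: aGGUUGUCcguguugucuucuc
mmu-miR-410-5p: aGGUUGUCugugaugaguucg
mmu-miR-453: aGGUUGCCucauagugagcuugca
mmu-miR-496a-5p: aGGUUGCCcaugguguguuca
mmu-miR-410-3p: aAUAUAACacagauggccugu
The first pair has the seed GGUUGUC and the second pair GGUUGCC, while mmu-miR-410-3p has a seed of its own in the cluster. The libraries measured long RNA, so the values of Mirg below are those of the host RNA and not of these microRNAs.

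Total counts ran from 16584117 to 24988880 per library, and the insulin genes took 40.3% to 69.4% of them. Mouse 13 (refed DT) had the 69.4%, and mice 13 and 20 (both refed DT) had the highest shares of mitochondrial counts, 1.36% and 1.59%. For the 10 genes, Rtl1 and the genes beside the region, results that rest on these 2 mice are given with and without them. Values of Malat1 and of the other named genes are given with all mice only. Log2 levels of library pairs correlated at 0.847 to 0.967, and 0 libraries were identical. Levels are counts per 1e+06 counts (CPM), with library totals scaled by TMM, a method that aligns the bulk of genes between libraries. All 10 β-cell markers were detected in every group. The α-cell gene Irx1 was at 0 in both DT groups and had at most 1 read in a whole control group, and Sst, the δ-cell hormone, was lower in DT than in control mice when fasted (adjusted p = 0.039) and when refed (adjusted p = 0.00288; edgeR's quasi-likelihood test with Benjamini-Hochberg adjustment).

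Dlk1 was higher in β-cells of DT mice whether refed or fasted, and in neither state did the DT and control mice overlap. Dlk1 was chosen by this difference, and the share of all genes without overlap is not given here, so nothing is read from the separation. In refed DT mice it lay between 2.74 and 10.4 CPM with a median of 5.25, against 1.06, 1.59, 1.30, 1.89 and 0.842 CPM in the refed control mice. Fasted DT mice had 1.49 to 4.81 CPM with a median of 1.85, against 1.06, 1.46, 1.46, 1.04 and 0.6249 CPM in fasted control mice. The lowest refed DT mouse thus stood clear of the highest refed control mouse, while the lowest fasted DT mouse (1.49 CPM) was only just above the highest fasted control mouse. Of the refed DT mice, numbers 15, 16 and 17 (6.94, 10.4 and 9.17 CPM) stood above the other 3 (2.74 to 3.56 CPM).

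Means were 6.02 ± 3.296 CPM in refed DT mice (SD, n = 6) and 1.33 ± 0.415 CPM in refed control mice (n = 5), a log2 fold change of 2.17 ± 0.40 (SE), or 4.49-fold. In fasted mice they were 2.44 ± 1.25 CPM with DT (n = 6) and 1.13 ± 0.348 CPM in controls (n = 5), a log2 fold change of 1.12 ± 0.39, or 2.17-fold. Ordered by mean, the groups run refed DT, fasted DT, refed control, fasted control. The fasted DT and refed control mice overlapped, as did the 2 control groups, and so did refed and fasted DT mice. Counts behind these levels were modest, 13 to 258 reads per library. Without mice 13 and 20, the lowest of the refed DT group (30 and 69 reads), the refed value was 2.50.

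Because Dlk1 was chosen by this comparison, the counts past the adjusted threshold of 0.05 are listed beside those of all genes, and nothing is read from them. In refed mice the count was 1 of 9 (Dlk1), where 0.0356% of all 14064 tested genes passed (0.0213% higher and 0.0142% lower). In fasted mice it was 0 of 9, where 0.0284% of all genes passed (0.0213% higher and 0.00711% lower). Averaged over feeding it was 1 of 9 (Dlk1), where 0.206% of all genes passed (0.107% higher and 0.0995% lower). The number of genes passing in refed mice, 5, was 1 under limma voom and 1 to 52 when 1 mouse was left out. In these sorted cells, a change in the share of Dlk1-expressing cells and a change in Dlk1 RNA per cell cannot be told apart. The levels of markers of some other cells follow, and their part in the Dlk1 values was not tested. Summed δ-cell markers lay at 4.05 to 29.4 CPM in refed DT mice and 36.9 to 83.7 CPM in refed control mice, and at 12.9 to 46.2 CPM in fasted DT mice and 20 to 77.1 CPM in fasted control mice. Summed α-cell markers lay at 94.4 to 184 CPM in refed DT mice and 185 to 312 CPM in refed control mice, and at 107 to 179 CPM in fasted DT mice and 125 to 389 CPM in fasted control mice. Summed γ-cell markers lay at 18.5 to 86.7 CPM in refed DT mice and 36 to 258 CPM in refed control mice, and at 6.71 to 26.6 CPM in fasted DT mice and 14 to 121 CPM in fasted control mice. The sums of DT and control mice overlapped in all these lists but those of α and δ cells in refed mice. These sums also hold genes that are not hormones, such as Gc and Slc7a2 (α) and Rbp4 (δ). Taken alone, the hormone genes Gcg (α) and Sst (δ) did not overlap in either feeding state, with all DT mice lower. In fasted mice Gcg averaged 0.264 CPM with DT and 87.6 CPM in controls, and Sst 0.828 and 31.65 CPM. Gcg was called in neither state, and Ppy (γ) overlapped in both. Acinar markers ran from 58.2 to 29700 CPM in refed DT mice and from 1120 to 19300 CPM in refed control mice, and from 86.9 to 16800 CPM in fasted DT mice and from 108 to 11800 CPM in fasted control mice. Immune markers ran from 11.1 to 440 CPM in refed DT mice and from 8.72 to 46.8 CPM in refed control mice, and from 25.5 to 324 CPM in fasted DT mice and from 24.8 to 168 CPM in fasted control mice. Duct markers ran from 353 to 507 CPM in refed DT mice and from 285 to 389 CPM in refed control mice. In fasted mice they ran from 349 to 397 CPM with DT and from 371 to 471 CPM in controls. The lists of endothelial, fibroblast and Schwann cells are not given here.

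**Figure D1:**
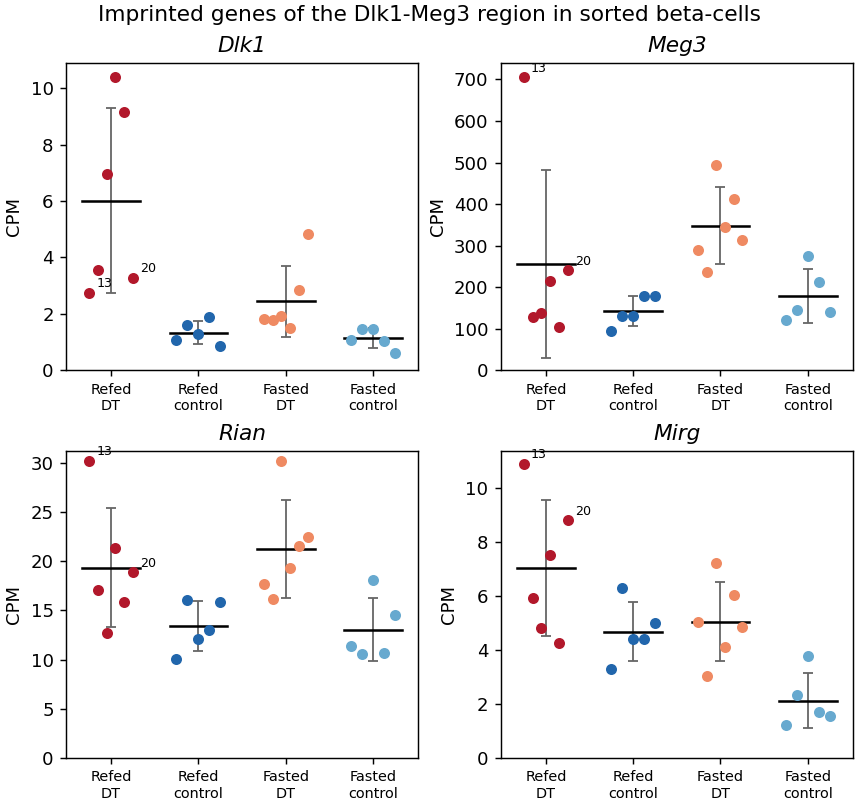
Levels of Dlk1, Meg3, Rian and Mirg in CPM (TMM-scaled, linear axis from 0), 1 point per mouse; lines are group means and bars SDs, and mice 13 and 20 are numbered. Dlk1, chosen by its higher counts in DT mice, lies above all refed control mice in refed DT mice (2.74 to 10.4 CPM). Mouse 13 at 706 CPM stands apart in Meg3.

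Meg3, a long noncoding RNA expressed from the mother's copy, was by far the most abundant RNA of the region. Fasted DT mice had 237 to 495 CPM with a median of 328, against 121, 145, 276, 211 and 139.5 CPM in fasted control mice. All fasted DT mice but 1 were above every fasted control mouse, so the groups overlapped by a single mouse on each side. The mean was 348 ± 92.6 CPM with DT (SD, n = 6) and 178 ± 64.1 CPM in controls (n = 5), and the log2 fold change 0.96 ± 0.39 (SE). In refed DT mice it lay between 104 and 706 CPM with a median of 177, against 95.1, 129.5, 129, 179.6 and 178 CPM in refed control mice. That comparison rested on mouse 13, whose 706 CPM came from 7720 reads, and the remaining 5 DT mice (104 to 241 CPM) largely overlapped the controls. The log2 fold change was 0.84 ± 0.39, but 0.23 without mouse 13 and 0.06 without mice 13 and 20.

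Rian, the noncoding RNA that hosts many small nucleolar RNAs, and Mirg, which hosts microRNAs, were also at higher mean levels in DT mice. Rian averaged 19.4 ± 6.09 CPM in refed DT mice (SD, n = 6) and 13.4 ± 2.58 CPM in refed control mice (n = 5), with a log2 fold change of 0.53 ± 0.21 (SE). It averaged 21.2 ± 4.98 CPM in fasted DT mice (n = 6) and 13.1 ± 3.24 CPM in fasted control mice (n = 5), with a log2 fold change of 0.70 ± 0.21. The groups overlapped in both feeding states.

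Mirg showed its largest difference in fasted mice. It lay at 3.04 to 7.20 CPM with a median of 4.94 in fasted DT mice, against 1.21, 2.33, 3.77, 1.71 and 1.54 CPM in fasted control mice, and the groups overlapped through mouse 7 (3.04 CPM, DT) and mouse 3 (3.77 CPM, control). The log2 fold change was 1.25 ± 0.30 (SE). In refed mice it was 4.26 to 10.9 CPM with a median of 6.71 with DT, against 3.296, 6.27, 4.40, 4.38 and 4.99 CPM in controls, and the log2 fold change was 0.59 ± 0.29, or 0.29 without mice 13 and 20. For each of the 3 noncoding RNAs the difference was thus at least as large in fasted as in refed mice, while Dlk1 had its larger one in refed mice. The DT effect in refed mice minus that in fasted mice was 1.05 ± 0.54 (SE) on the log2 scale for Dlk1. It was -0.12 ± 0.55 for Meg3, -0.17 ± 0.29 for Rian and -0.67 ± 0.41 for Mirg. The 95% intervals all include 0, from -0.07 to 2.17 for Dlk1, -1.26 to 1.01 for Meg3, -0.78 to 0.44 for Rian and -1.53 to 0.19 for Mirg. The difference was -0.89 for Meg3 without mice 13 and 20. The count past the adjusted threshold was 0 of 9, where 0.00711% of all genes passed, and nothing is read from it.

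**Figure D2:**
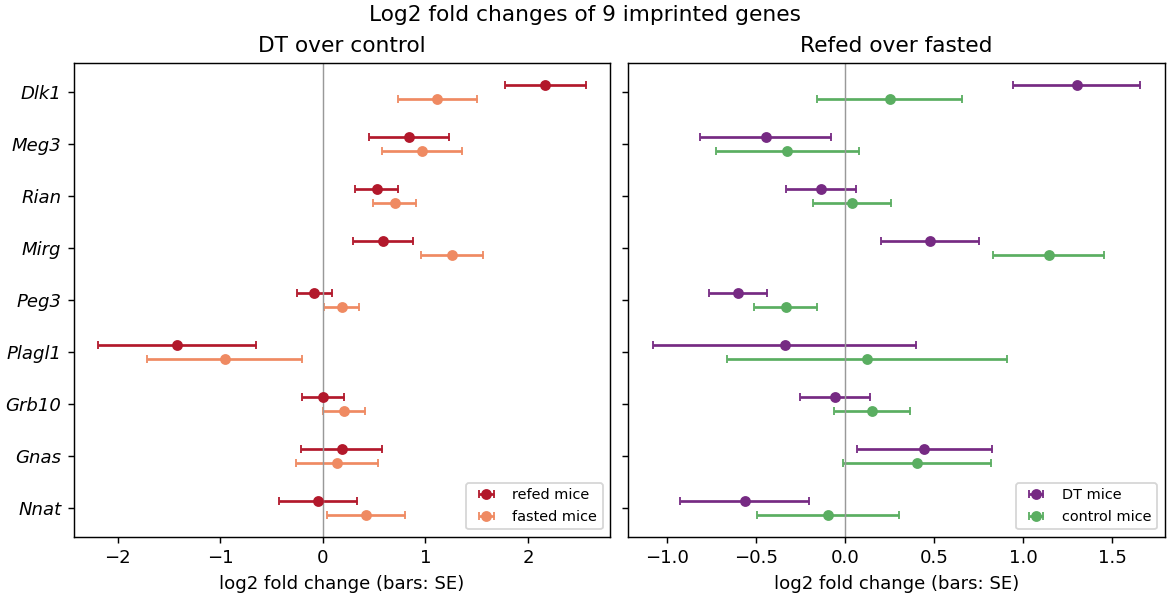
Log2 fold changes with SE bars of the 9 tested genes, DT over control on the left (refed and fasted mice) and refed over fasted on the right (DT and control mice). Dlk1 has the largest positive value in refed mice (2.17), and the 4 genes of the region lie above 0 in both feeding states on the left.

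Rtl1, the other protein gene of the region expressed from the father's copy and derived from a retrotransposon, was not called, and its refed value rested on mouse 13. It averaged 2.73 ± 4.13 CPM in refed DT mice (SD, n = 6) and 0.914 ± 0.411 CPM in refed control mice (n = 5), with a log2 fold change of 1.55 ± 0.76 (SE, adjusted p = 0.510 by edgeR's quasi-likelihood test), and mouse 13 alone had 121 reads. Without mouse 13 it averaged 1.13 ± 0.739 CPM in refed DT mice (n = 5) and 0.954 ± 0.432 CPM in refed control mice, with a log2 fold change of 0.25 ± 0.60, and without mice 13 and 20 the log2 fold change was 0.11 ± 0.65. These values were computed after the data were seen. It averaged 1.43 ± 0.9003 CPM in fasted DT mice and 0.518 ± 0.350 CPM in fasted control mice (log2 fold change 1.45 ± 0.78, adjusted p = 0.665 by the same test). The RefSeq span of Rtl1 (chr12:109564900-109604418) overlaps those of Meg3 and Rian, though no shared exon bases are listed in GENCODE M21. No strand setting of the counting is given, and the part of this overlap in the Rtl1 counts was not tested. Dio3, the imprinted deiodinase gene at the far end of the domain, had 0 reads in every library.

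On either side of the region, the 8 nearest tested genes were Wdr25, Wars, Slc25a47 and Slc25a29 before Dlk1, at 424 to 617 kb, and Ppp2r5c, Gm19605, B930059L03Rik and Dync1h1 after Mirg, at 698 to 852 kb. None of the 8 was called between DT and control mice in either feeding state by edgeR, DESeq2 or limma voom, and 1 had an unadjusted p below 0.05 in each state. Their log2 fold changes lay between -0.28 and 0.83 in refed mice and between -0.15 and 0.87 in fasted mice. The highest values were those of low genes. Slc25a47, a mitochondrial carrier, had 0.83 ± 0.53 (SE) in refed mice, and the noncoding gene B930059L03Rik had 0.87 ± 0.35 in fasted mice and -0.28 ± 0.34 in refed mice. Wars, which charges transfer RNA with tryptophan, had -0.28 ± 0.14 in refed mice and 0.07 ± 0.14 in fasted mice. Rian in both states and Mirg in refed mice lay within this range, Meg3 lay just above it, and Dlk1 lay above it in both states. Without mice 13 and 20 the flanking genes ran from -0.34 to 1.16 in refed mice, with Meg3 at 0.06, Rian at 0.34, Mirg at 0.29 and Dlk1 at 2.50.

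**Figure D3:**
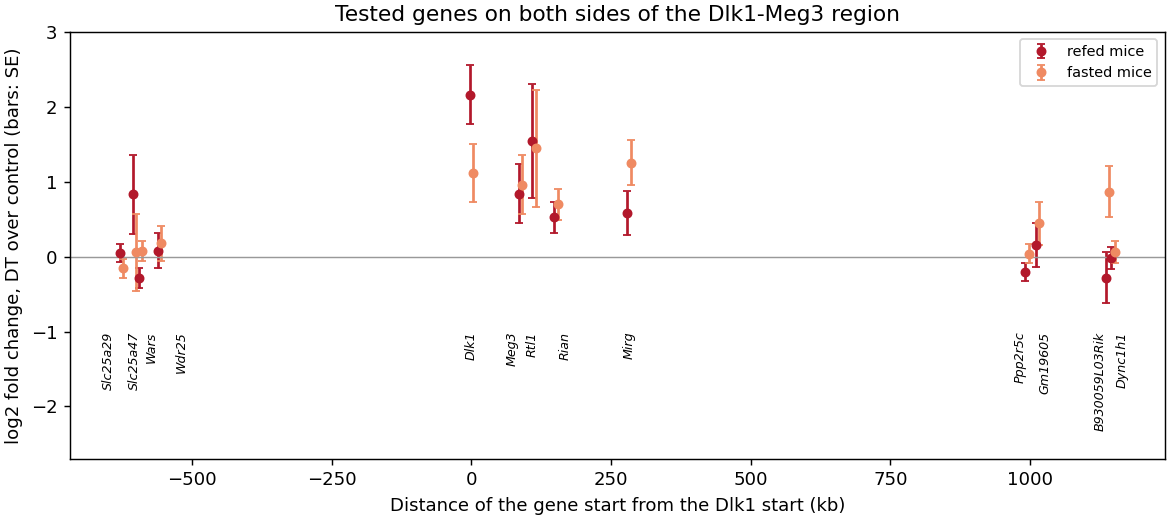
Log2 fold change, DT over control, with SE bars, for the tested genes of the region and the 4 nearest on each side, against the distance of the gene start from the Dlk1 start in kb. The 5 genes of the region, Rtl1 included, lie between 0.53 and 2.17 and the 8 flanking genes between -0.28 and 0.87, ranges that overlap. Without mice 13 and 20, which are included here, the refed values of Meg3, Rtl1, Rian and Mirg are 0.06, 0.11, 0.34 and 0.29.

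Within groups, the 3 noncoding RNAs varied together from mouse to mouse, and no such relation was shown for Dlk1. After the group means were removed, the log2 levels of Meg3 and Rian correlated over the 22 mice with Pearson's r = 0.774 (adjusted p = 0.0005) and Spearman's rho = 0.709 (adjusted p = 0.0017, permutation tests within groups, two-sided, 6 pairs tested). For Meg3 and Mirg r was 0.776 (permutation test, adjusted p = 0.00042) and rho 0.747 (adjusted p = 0.0017), and for Rian and Mirg r was 0.79 (adjusted p = 0.00042) and rho 0.735 (adjusted p = 0.0017). Leaving out the 2 mice farthest from the median, 8 and 13, gave r = 0.628, 0.769 and 0.715 for these pairs in the same order. Without mice 13 and 20 they were 0.678, 0.763 and 0.746. Dlk1 had r = -0.256 with Meg3 (rho -0.0728), -0.137 with Rian (rho -0.0932) and -0.0306 with Mirg (rho 0.0254), with permutation p adjusted to 0.649, 0.743 and 0.90 for r and to 0.92 for each rho. Without mice 16 and 17, farthest from the median of Dlk1, r was -0.144, -0.171 and 0.0946, and without mice 13 and 20 it turned to 0.212, 0.116 and 0.281. No sign is therefore given for the relation of Dlk1 to the noncoding RNAs.

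**Figure D4:**
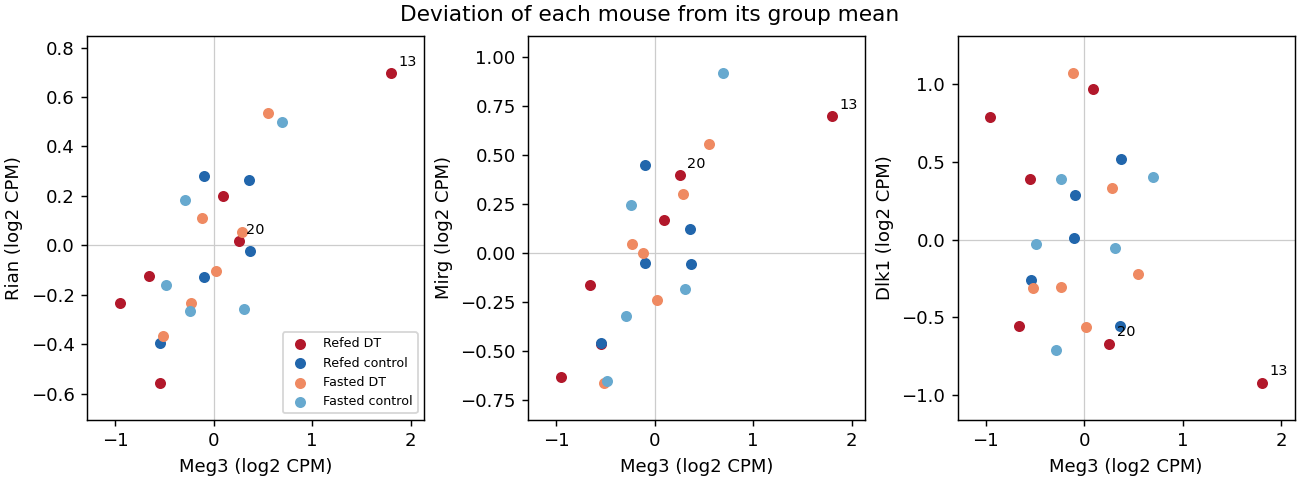
Deviation of each mouse from its group mean in log2 CPM, with Meg3 on the x axis and Rian, Mirg or Dlk1 on the y axis; colours are the 4 groups and mice 13 and 20 are numbered. Rian and Mirg climb with Meg3 (r = 0.774 and 0.776), and Dlk1 shows no such slope (r = -0.256).

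Malat1, an abundant RNA retained in the nucleus, moved with Meg3 closely. It ranked first of 10664 genes by likeness to Meg3, with r = 0.97 and rho = 0.949 over the 22 mice as a description (r within groups 0.968), and this ranking was added after the values were seen. Within groups r of Malat1 was 0.732 with Rian, 0.721 with Mirg and -0.2 with Dlk1. In DT against control mice its log2 fold change was 0.83 ± 0.45 (SE) when refed and 0.90 ± 0.45 when fasted, near those of Meg3 with all mice included. Neither was called (adjusted p = 0.552 and 0.628, edgeR's quasi-likelihood test). Refed DT mice had 253 to 2511 CPM of Malat1 with a median of 473, against 314 to 512 CPM with a median of 433 in refed control mice. No value of Malat1 without mouse 13 is given, while the refed value of Meg3 was 0.23 without it. Whether the share of nuclear RNA in a library has a part in the values of Meg3, Rian and Mirg was not tested.

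The genes whose levels over the 22 mice were most like those of Dlk1 were Arrdc3 (r = 0.799, rho = 0.70), an arrestin-domain protein, Ppil4 (r = 0.761), Rpl29 (r = 0.755), a ribosomal protein, Tra2b (r = 0.747), a splicing factor, and Galr1 (r = 0.735), a galanin receptor. Part of this likeness lay between groups, since r within groups was 0.585 for Arrdc3, 0.522 for Ppil4, 0.381 for Rpl29, 0.474 for Tra2b and 0.623 for Galr1. Arrdc3 averaged 46.1 ± 12.8 CPM in refed DT mice (SD, n = 6), 30.4 ± 9.38 CPM in refed control mice (n = 5), 31.8 ± 6.68 CPM in fasted DT mice (n = 6) and 22.8 ± 2.77 CPM in fasted control mice (n = 5). Refed DT was highest and fasted control lowest, as for Dlk1. Arrdc3 was picked by its likeness to Dlk1 over these same mice, so nothing is read from this order.

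With refeeding, averaged over DT and control mice, 3 of the 9 tested genes passed the threshold, Mirg and Dlk1 higher and Peg3 lower, where 38.9% of all genes did. For Dlk1 this is a description, since the refed DT mice by which it was chosen enter the comparison. In DT mice its log2 fold change was 1.30 ± 0.36 (SE), and refed and fasted mice overlapped. In control mice, a comparison with no DT mice in it, the log2 fold change of Dlk1 was 0.25 ± 0.41 (adjusted p = 0.711, edgeR's quasi-likelihood test with Benjamini-Hochberg adjustment), with a 95% interval from -0.59 to 1.09. The averaged value of Dlk1 was 0.77 ± 0.27, and it did not pass the threshold under limma voom or without mouse 5, 16, 17 or 21. Leaving out 1 mouse at a time gave 2 to 4 of the imprinted genes past the threshold on average.

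Mirg rose with refeeding in control mice, where 1 of 9 genes passed against 23.3% of all genes. Its levels were 3.296, 6.27, 4.40, 4.38 and 4.99 CPM refed and 1.21, 2.33, 3.77, 1.71 and 1.54 CPM fasted, a log2 fold change of 1.14 ± 0.31 (SE, adjusted p = 0.0103, edgeR's quasi-likelihood test). All refed control mice but mouse 12 were above the highest fasted one. In DT mice it was 0.47 ± 0.28 (adjusted p = 0.226), and on average 0.81 ± 0.21 (adjusted p = 0.00381). Meg3 and Rian, transcribed in the same direction upstream, had no call on average (-0.39 ± 0.27, adjusted p = 0.280, and -0.05 ± 0.15, adjusted p = 0.819, by the same test). Meg3 was called lower in refed than in fasted DT mice once mouse 13 was left out (-1.005, adjusted p = 0.00574), or mice 13 and 20 (-1.17, adjusted p = 0.00303), and on average too (-0.73, adjusted p = 0.00319, without both).

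Peg3, a zinc finger protein made from the father's copy, was the most abundant of the 10 genes, with 64.9 CPM per kb of exon as the median level over 22 mice. On the same scale the medians were 15.6 for Nnat, 10.8 for Meg3, 1.35 for Grb10, 0.883 for Rian, 0.63 for Mirg, 0.493 for Plagl1, 0.347 for Gnas, 0.317 for Dlk1 and 0.0217 for Igf2. Dlk1 was thus 1 of the least abundant by these counts. Exons of Gnas and Igf2 are shared in part with other genes, and the part of this overlap in their places was not tested. Peg3 fell with refeeding in DT mice, where 2 of 9 genes (Dlk1 and Peg3) passed against 24.4% of all genes. It lay between 544 and 934 CPM with a median of 701 in refed DT mice, against 836 to 1377 CPM with a median of 1116 in fasted DT mice, and the groups overlapped through mouse 13 at 934 CPM. The log2 fold change was -0.61 ± 0.16 (SE, adjusted p = 0.00918, edgeR's quasi-likelihood test), and in control mice it was -0.34 ± 0.18 (adjusted p = 0.188). The feeding effect in DT mice minus that in control mice was -0.27 ± 0.24, with a 95% interval from -0.77 to 0.23. Between DT and control mice Peg3 differed by -0.08 ± 0.17 when refed and 0.19 ± 0.17 when fasted.

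Plagl1, a zinc finger factor made from the father's copy and linked to transient neonatal diabetes in humans, had an uneven level among mice within each group. Refed DT mice had 1.32 to 15.5 CPM with a median of 2.37, against 23.2, 3.50, 5.93, 24.2 and 3.17 CPM in refed control mice. Fasted DT mice had 2.25 to 16.3 CPM with a median of 2.97, against 18.6, 3.84, 3.95, 25.1 and 3.87 CPM in fasted control mice. Of the 22 mice, 6 were at 15.5 CPM or more (13 refed DT, 12 and 21 refed control, 6 fasted DT, 1 and 4 fasted control), and the other 16 were at 7.02 CPM or less. These high mice occur in all 4 groups. The log2 fold change was -1.42 ± 0.77 (SE) with DT in refed mice and -0.96 ± 0.76 in fasted mice, with overlapping groups, and no feeding comparison was called (adjusted p = 0.783 in DT mice and 0.936 in control mice by edgeR's quasi-likelihood test). The fasted value was -1.62 without mouse 6 and -0.38 without mouse 4, and the refed value -2.29 without mouse 13 and -0.999 without mouse 21.

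**Figure D5:**
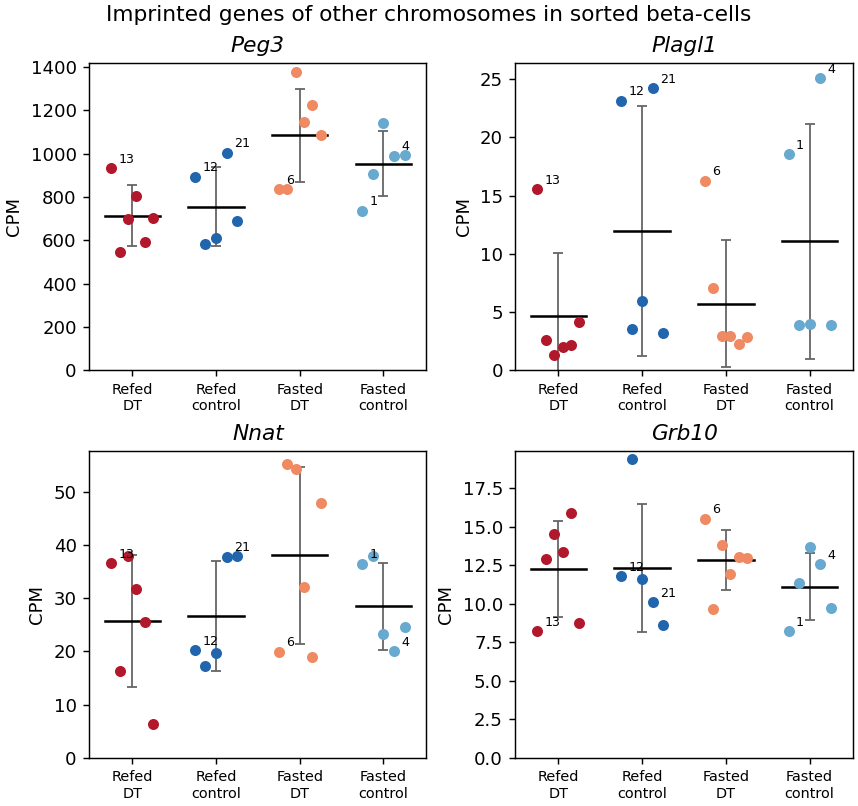
Levels of Peg3, Plagl1, Nnat and Grb10 in CPM (TMM-scaled, linear axis from 0), 1 point per mouse; lines are group means and bars SDs, cut off at 0, and the 6 mice with Plagl1 at 15.5 CPM or more are numbered. Plagl1 has 6 high mice (15.5 to 25.1 CPM), found in all groups, and 16 mice at 7.02 CPM or less.

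Grb10, an adaptor that dampens signalling from the insulin and IGF1 receptors, had the smallest range of the 9 tested genes over the 22 mice, 8.20 to 19.4 CPM, or 2.36-fold, against 16.6-fold for Dlk1 and 19.02-fold for Plagl1. It averaged 12.3 ± 3.11 CPM in refed DT mice (SD, n = 6) and 12.3 ± 4.16 CPM in refed control mice (n = 5), with a log2 fold change of 0.00 ± 0.21 (SE). In fasted mice it averaged 12.8 ± 1.95 CPM with DT and 11.1 ± 2.19 CPM in controls, with 0.21 ± 0.21. Nnat, a small protein of the endoplasmic reticulum that assists insulin precursor processing in mouse β-cells, ranged from 6.37 to 55.3 CPM. Its log2 fold change was -0.05 ± 0.38 with DT in refed mice and 0.42 ± 0.38 in fasted mice, with overlapping groups. Refeeding gave no call for either gene (adjusted p from 0.275 to 0.894 within DT or control mice, edgeR's quasi-likelihood test).

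Gnas, which encodes the G protein that raises cAMP, had only 24 to 160 reads per library, or 1.43 to 7.73 CPM. Its log2 fold change was 0.18 ± 0.40 (SE) with DT in refed mice and 0.14 ± 0.40 in fasted mice. In GENCODE M21, 13.1% of its exon bases are shared with the antisense gene Gm20721 and 8.83% with the antisense RNA Nespas, and no strand setting of the counting is given, and the part of this overlap in its counts was not tested. Igf2, a growth factor made from the father's copy, had 0 to 9 reads per library, with 1 refed DT, 1 refed control and 2 fasted DT mice at 0. In many libraries it was at or under the level of 3 reads (0.12 to 0.274 CPM by library), and 62.8% of its exon bases are shared with the gene Gm49394 on the same strand. No fold change is given.

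Other imprinted genes were taken from a list of 66, of which 65 were in the table and 45 were tested. In DT against control mice, 0 of 45 were called when refed (10 had an unadjusted p below 0.05) and 0 when fasted (6 had) by edgeR, and DESeq2 and limma voom also called 0. Their median log2 fold change was -0.01 refed and -0.05 fasted, against -0.00 and 0.01 over all genes. Usp29, a neighbour of Peg3 made from the father's copy, had 10.2 ± 4.75 CPM in refed DT mice and 6.03 ± 1.33 CPM in refed control mice, a log2 fold change of 0.75 ± 0.24 (SE, adjusted p = 0.268). Snrpn, a core splicing protein gene of the Prader-Willi region, had 34.7 ± 2.26 CPM in fasted DT mice and 40.5 ± 2.15 CPM in fasted control mice (SD, n = 6 and 5). Its log2 fold change was -0.22 ± 0.09 (SE), with an adjusted p of 0.484 in edgeR. Averaged over feeding, edgeR called 0 of 45 (10 with an unadjusted p below 0.05), and DESeq2 called these 2 genes. Peg13, a noncoding RNA, had -0.41 ± 0.12 in fasted mice (adjusted p = 0.317 in edgeR), and Slc22a2, a transporter, had 5 reads over all 5 refed control mice, too few for a fold change.

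With refeeding, 5 of the 45 rose and 8 fell in control mice (28.9%, against 23.3% of all genes), and 6 rose and 6 fell in DT mice (26.7%, against 24.4%). Tnfrsf23, a decoy receptor for the death ligand TRAIL, had 6.04 ± 2.18 CPM in refed DT mice and 2.05 ± 0.763 CPM in fasted DT mice, a log2 fold change of 1.56 ± 0.28 (SE, adjusted p = 0.000369 in edgeR). In control mice Tnfrsf23 rose by 2.17 ± 0.31 (adjusted p = 4.45e-05 in edgeR). Zim1, a zinc finger gene beside Peg3, fell by 1.68 ± 0.32 in DT mice (adjusted p = 0.000625 in edgeR) and by 1.54 ± 0.35 in control mice (adjusted p = 0.00287). Among the genes that rose in control mice were H13 (0.89 ± 0.19), the signal peptide peptidase, Nap1l4 (0.70 ± 0.14), a histone chaperone, and Inpp5f (0.67 ± 0.14), a phosphoinositide phosphatase. Copg2 (-0.43 ± 0.11), a coat protein of Golgi vesicles, and Pon2 (-0.53 ± 0.14), a paraoxonase, fell in DT mice.

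Regulators of imprints, the enzymes and zinc finger proteins that write or keep DNA methylation and histone marks, held 13 tested genes of 16. None was called in DT against control mice in either feeding state by edgeR, DESeq2 or limma voom, and 1 (Tet2, fasted mice, 0.60 ± 0.18) had an unadjusted p below 0.05. With refeeding 0 rose and 3 fell in both DT and control mice, 23.1% of the list each time, against 24.4% of all genes in DT mice and 23.3% in control mice. Dnmt3a, a DNA methyltransferase, fell by 0.64 ± 0.13 (SE) in DT mice (adjusted p = 0.00105 in edgeR) and by 0.51 ± 0.14 in control mice (adjusted p = 0.0105). Ezh2, the histone methyltransferase of Polycomb, fell by 0.97 ± 0.31 in DT mice and by 1.07 ± 0.34 in control mice. Tet3, which oxidises methylcytosine, fell by 0.71 ± 0.25 in DT mice and by 1.01 ± 0.28 in control mice. The list's median was -0.46 in DT and -0.37 in control mice, against -0.06 and -0.04 over all genes.

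Of 25 tested Notch pathway genes, the receptors, ligands and targets that Dlk1 resembles or touches, edgeR called 0 in DT against control mice (4 had an unadjusted p below 0.05 refed and 2 fasted). DESeq2 called 2 of them in refed mice, Maml2, a coactivator, and Neurog3, the transcription factor of endocrine progenitors. Their log2 fold changes were 2.30 ± 0.58 and 2.17 ± 0.67 (SE) in edgeR. These rest on low counts, as the 5 refed control mice together had 30 reads of Maml2 and 47 of Neurog3, with 1 mouse at 0 for Neurog3. Fasted DT and fasted control mice averaged 0.54 and 0.51 CPM for Maml2 and 4.55 and 4.44 CPM for Neurog3. With refeeding 0 rose and 2 fell in DT mice (8% of the list, against 24.4% of all genes), and 0 rose and 4 fell in control mice (16%, against 23.3%). The ligand Dll4 had 2.03 ± 1.13 CPM in refed DT mice and 10.8 ± 3.48 CPM in fasted DT mice, and fell by 2.40 ± 0.32 (adjusted p = 1.75e-05 in edgeR). In control mice Dll4 fell by 1.38 ± 0.34 (adjusted p = 0.00466). The ligand Dll1 fell by 1.04 ± 0.26 in DT mice and by 1.16 ± 0.29 in control mice. Neurog3 (-3.296 ± 0.70, with the same 47 reads in refed control mice) and the protease gene Adam10 (-0.58 ± 0.18) were called in control mice.

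Of 11 tested genes of the insulin-like growth factor axis, in which Igf2 and Grb10 act, edgeR, DESeq2 and limma voom called 0 in DT against control mice, and 1 had an unadjusted p below 0.05 (Insr, refed, 0.44 ± 0.20). With refeeding 1 rose and 1 fell in DT mice (18.2%, against 24.4% of all genes), and 0 rose and 2 fell in control mice (18.2%, against 23.3%). The receptor gene Igf1r rose by 1.03 ± 0.32 (SE) in DT mice (adjusted p = 0.0242 in edgeR). Refed DT mice had a median of 32.2 CPM and a highest value of 109 CPM, against 15.5 to 35.8 CPM in fasted DT mice. Control mice averaged 52.6 CPM refed and 27.2 CPM fasted, a rise that DESeq2 called and edgeR did not. Grb14, the adaptor most like Grb10, fell by 0.48 ± 0.14 in DT mice (adjusted p = 0.0159) and by 0.54 ± 0.15 in control mice (adjusted p = 0.0128). Insr, the insulin receptor, fell in control mice by 0.73 ± 0.20 (adjusted p = 0.0118) and had -0.18 ± 0.19 in DT mice (adjusted p = 0.522).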

How the data were processed

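The libraries were made from total RNA of FAC-sorted β-cells and sequenced as single reads of 100 bases, 1 library per mouse, per the labels' protocols. The deposited values are raw read counts per gene, which the authors made with STAR 2.7.2b and HTSeq 0.9.1 on build GRCm38.p6, per the submitters' processing notes, which also name DESeq2 1.28.1. How strand was treated in counting, and which annotation release was used, is not given in the sources used here, and no molecular identifiers were counted.

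The table lists 52327 genes, of which 24242 were at 0 throughout and 14064 passed edgeR's filterByExpr by group. All 4 groups were fitted together with TMM scaling and edgeR 4.0.16's robust quasi-likelihood test (R 4.3.3), with 1 coefficient per group, 7 comparisons and p-values adjusted over all tested genes by Benjamini and Hochberg. All adjusted p-values of genes in the text come from this test unless another tool is named. The common biological coefficient of variation was 0.373, and the detection limit is 3 counts, which covers counting error only. The mice are labelled as separate animals. SEs were derived from the F statistics. Log2 CPM used a prior count of 2. Correlations were tested with 100000 permutations within groups. The model was tested on simulated counts with known changes. DESeq2 1.42.0, limma 3.58.1 (voom), other scalings, no filter, fits on the groups compared and left-out mice were the alternatives.

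The genes and lists were chosen with earlier results of these data known. Named from each list were up to 4 called genes with the smallest p in a comparison, or the 2 with the smallest p where none was called. Likeness to Dlk1 was ranked by Pearson's r among genes averaging 1 or more in log2 CPM. Positions, promoters and microRNAs are RefSeq's on GRCm38.p6. Exon lengths and overlaps are those of GENCODE M21.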

Additional observations from a re-analysis of the deposited data

Results flagged for a closer look

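In 3 of the 40 sets of values tested (each of the genes in each group), 1 mouse stood apart from the rest of its group by Dixon's ratio, which chance passes in about 1 in 20 sets. Meg3 was at 706 CPM in mouse 13 of the refed DT group, where the other 5 mice lay between 104 and 241 CPM. Plagl1 was at 15.5 CPM in the same mouse, where the others had 1.32 to 4.14 CPM. Plagl1 was at 16.3 CPM in mouse 6 of the fasted DT group, where the others had 2.25 to 7.02 CPM. Mouse 13 also had the highest share of insulin counts, 69.4%, and mouse 6 had 50.1%.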

How the results depend on the processing

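The number of genes called between DT and control mice depended on the processing. In fasted mice 4 genes were called, against 2 with median-of-ratios size factors (2 higher, 0 lower, where the main split was 3 and 1), 2 without Ins1 and Ins2, 0 with no filter, 50 with DESeq2, 0 with only the groups compared and 26 without mice 13 and 20. In refed mice 5 were called, against 86 with DESeq2, 1 with limma voom, 2 with only the groups compared and 175 without mice 13 and 20. Averaged over feeding 29 were called, against 8 with no filter, 186 with DESeq2 and 123 without mice 13 and 20. For the difference between the DT effects 1 was called, against 21 with DESeq2, 0 with limma voom and 14 without mice 13 and 20. Leaving out 1 mouse at a time gave 0 to 19 in fasted mice, 1 to 52 in refed mice, 4 to 69 on average and 1 to 2 for the difference, with the highest count of fasted mice without mouse 13, those of refed mice and of the average without mouse 20, and that of the difference without mouse 6. The cause was not tested. Counts for refeeding stayed within 1.5 times of the main ones.

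Dlk1 kept its direction with DT in every setting run, with 1.94 to 2.33 in refed mice and 0.80 to 1.23 in fasted mice when 1 mouse was left out. Since Dlk1 was chosen by its higher counts in these same libraries, this is a description and no support for the difference. Small refeeding changes that were not called crossed 0 when 1 mouse was left out. In control mice they ran from -0.035 to 0.19 for Rian, -0.30 to 0.72 for Plagl1, -0.074 to 0.25 for Grb10 and -0.27 to 0.027 for Nnat. In DT mice they ran from -0.23 to 0.0040 for Rian, -1.165 to 0.32 for Plagl1 and -0.15 to 0.10 for Grb10. On average they ran from -0.085 to 0.025 for Rian, -0.51 to 0.22 for Plagl1 and -0.066 to 0.14 for Grb10. Without mice 13 and 20 the value of Grb10 in DT mice was 0.22. The correlation of Dlk1 with Meg3 ran from -0.341 to 0.0248, with Rian from -0.232 to 0.0529 and with Mirg from -0.139 to 0.114, and without mice 13 and 20 they were 0.212, 0.116 and 0.281. No paired analysis was possible because every mouse number occurs once. Low counts limit Dlk1 (13 to 258 reads per library), Mirg (25 to 186), Gnas (24 to 160), Rtl1 (2 to 121) and Igf2 (0 to 9).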

Other observations

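The genes whose levels over the 22 mice were most like those of Plagl1, a ranking added after its uneven levels were seen, were Pdcd4 (r = 0.744), Sfrp5 (r = 0.733), Casr (r = 0.689), Pld3 (r = 0.668) and Ptprn (r = 0.642). Pdcd4 represses translation, Sfrp5 is a secreted Wnt antagonist, Casr is the calcium-sensing receptor and Ptprn is a protein of insulin granules. Among those most like Gnas, also ranked after its values were seen, were N4bp1 (r = 0.914), Prkar2a (r = 0.897), Sik3 (r = 0.896) and Zfp598 (r = 0.893). Prkar2a is a regulatory subunit of the cAMP-dependent kinase. After Malat1, those most like Meg3 were Mlxipl (r = 0.955), the glucose-responsive transcription factor ChREBP, Syne4 (r = 0.935), Luc7l3 (r = 0.924) and Pnisr (r = 0.923). These are descriptions across libraries that share depth and composition.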
